A study of Homo sapiens with 12 samples.

Results

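The 85 genes described here encode the proteins of the cytosolic ribosome, and all rows of the deposited tables whose name follows the RPL or RPS numbering, or is RPLP0, RPLP1, RPLP2 or RPSA, were taken, which gave 85 of the 20375 genes listed. Of these, 53 belong to the large and 32 to the small subunit. The 8 genes with an L or L1 suffix (RPL3L, RPL7L1, RPL10L, RPL22L1, RPL26L1, RPL36AL, RPL39L and RPS27L) are called L-type paralogs here, and each is paired with the gene whose name it extends, called its parent. FAU, which encodes a ribosomal protein fused to a ubiquitin-like protein, and RACK1, a small-subunit protein, fall outside the naming rule and are given apart.

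The samples were 12 poly(A)-captured RNA libraries of PE/CA-PJ41, an established human line of oral squamous cell carcinoma. Of these, 4 came from cells labelled control. Another 4 came from cells exposed to human plasma at 10% for 48 h, and 4 from cells exposed for the same time to 10% PRP, platelet-rich plasma. All groups share the same line, and none carries a genetic change that the labels name. The labels do not give the control's medium or time, or the donors and platelet content of the plasma and PRP. They do not say whether the numbered libraries of a group came from separate cultures, so p-values reflect how far these libraries vary, and that variation may be technical. The comparisons are what plasma or PRP does to these transcripts against control, and whether PRP differs from plasma. Both treatments were set against the same 4 control libraries, so those comparisons are not independent of each other.

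A ribosome needs 1 copy of nearly every one of these proteins, with several copies of the acidic stalk proteins, and their mRNAs are among the most abundant of any growing cell. Most begin with a cytosine followed by a run of pyrimidines, the 5′ terminal oligopyrimidine (TOP) motif, through which mTORC1 and LARP1 control their translation and stability. L-type paralogs are encoded by separate genes, are usually expressed at low levels or in few tissues, and some can replace their parent in the ribosome. Several of the proteins also act outside it: RPL5 and RPL11 hold back MDM2 when ribosome assembly is disturbed.

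The libraries held 36258955 to 41976136 estimated reads each. Levels are in TPM, the usual transcript abundance, which is scaled by each gene's effective length and to a fixed total, so that a TPM is a share of a library's RNA and fewer cells and less RNA per cell cannot be told apart. All 8 squamous markers of a list (KRT5, KRT14, KRT6A, KRT17, TP63, CDH1, EPCAM and SFN) reached 1 TPM, and their summed level was 11510 to 12935 TPM in control libraries, 14138 to 15454 TPM in plasma libraries and 14165 to 15740 TPM in PRP libraries. Of 9 platelet, leukocyte and red-cell genes, 7 stayed below the 1 TPM filter, among them 2 with no estimated read in any library. In each group, 2 genes of the list reached 1 TPM. The list summed to 2.55 to 5.62 TPM (control), 4.68 to 7.34 TPM (plasma) and 7.50 to 9.11 TPM (PRP), without overlap between control and PRP. The 5 fibroblast and endothelial genes summed to 7.16 to 11.3, 9.97 to 12.7 and 8.86 to 10.5 TPM. The part of these lists in the results was not tested. Libraries 1 and 2 stood apart from libraries 3 and 4, most of all in control, where the chi-square per gene between the estimated reads of 2 libraries was 7.44 and 3.84 within these pairs and 16.9 to 32.7 across them. With plasma and PRP, library 2 was about as far from library 1 (9.19 and 8.49) as from library 3 (9.21 and 8.96), and libraries 3 and 4 were closest (4.61 and 7.31). Counts of members are therefore given for all libraries and for each set.

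Apart from the L-type paralogs, the ribosomal protein genes were expressed within a narrow, high range. The 77 of them had mean control levels of 413 to 7372 TPM with a median of 2487 TPM, 69 of them at 1000 TPM or more, and 60 were among the 100 most abundant genes. RPS2, a protein at the mRNA entry of the small subunit, was the highest, at 7372 ± 498 TPM (SD, n = 4) in control. RPL41, which encodes one of the smallest known proteins, had 6501 ± 203 TPM. RPL4, whose loop lines the exit tunnel, had 5231 ± 113 TPM, and RPLP0, which anchors the stalk, had 5114 ± 97.8 TPM. At the bottom, RPS28 had 413 ± 25.9 TPM and RPS26 506 ± 6.93 TPM. The 6 paralogs that passed the filter lay between 36.0 ± 3.74 TPM for RPS27L and 426 ± 13.2 TPM for RPL36AL. RPL3L (0.467 TPM in control) and RPL10L (0.187 TPM) did not pass, so 83 members were tested.

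The start of these genes shows the feature for which they are known. RefSeq's promoter table for GRCh38.p14 holds a start for 68 of the 85 members. A TOP-like start was counted where a C within 5 bases of the annotated start was followed by at least 4 letters that were each C or T, on the gene's own strand only. It was present in 55 of these 68 members (80.9%), in 53 of 62 that are not L-type (85.5%), and in 2 of 6 L-type paralogs, against 25.2% of all 27305 genes in the table and 29.4% of the tested genes in it. The stretches below run from 10 bases before to 20 bases after the annotated start and show 4 members that fell with both treatments and the 3 that rose with both. Capitals mark the longest run of C and T that touches the start window. They lie at chr17:8383174-8383203 (minus strand, RPL26), chr19:49487598-49487627 (plus, RPL13A), chr2:101002279-101002308 (plus, RPL31), chr6:33272065-33272094 (plus, RPS18), chrX:154398367-154398396 (plus, RPL10, 1 of its 3 listed starts), chr12:56041908-56041937 (plus, RPS26) and chr15:63157458-63157487 (minus, RPS27L).
RPL26: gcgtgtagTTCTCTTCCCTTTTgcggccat
RPL13A: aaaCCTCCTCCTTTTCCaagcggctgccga
RPL31: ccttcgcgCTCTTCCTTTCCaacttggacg
RPS18: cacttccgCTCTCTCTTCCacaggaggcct
RPL10: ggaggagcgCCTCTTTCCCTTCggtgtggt
RPS26: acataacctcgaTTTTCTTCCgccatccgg
RPS27L: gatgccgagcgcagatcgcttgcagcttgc
RPL10 has 2 other listed starts, and neither has a TOP-like start. RPS27L has no such run here, and the run of RPS26 begins with T, with its first C too far from the annotated start to be counted. Among tested members in the table, the motif was present in 21 of 28 that fell with plasma, 33 of 36 that did not pass and 1 of 3 that rose. With PRP the counts were 26 of 32, 27 of 31 and 2 of 4. A match describes these letters at the annotated start and does not show where transcription began in these cells.

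As a share of all TPM, the ribosomal protein genes were slightly lower with both treatments. The control libraries, in the order 1 to 4, had 21.1, 20.5, 19.5 and 19.8% of TPM in the 85 genes. The plasma libraries had 18.4, 18.5, 19.1 and 19.2%, and the PRP libraries 18.3, 17.9, 18.6 and 19.4%. Every treated library lay below every control library, with PRP 4 just below the lowest of them, control 3. The means were 20.2 ± 0.738% in control, 18.8 ± 0.404% with plasma and 18.6 ± 0.643% with PRP (SD, n = 4). As a share of estimated reads, which is not scaled by length, the genes took 5.58 ± 0.101%, 5.31 ± 0.208% and 5.21 ± 0.266%, and there the ranges of both treated groups overlapped that of control.

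**Figure D1:**
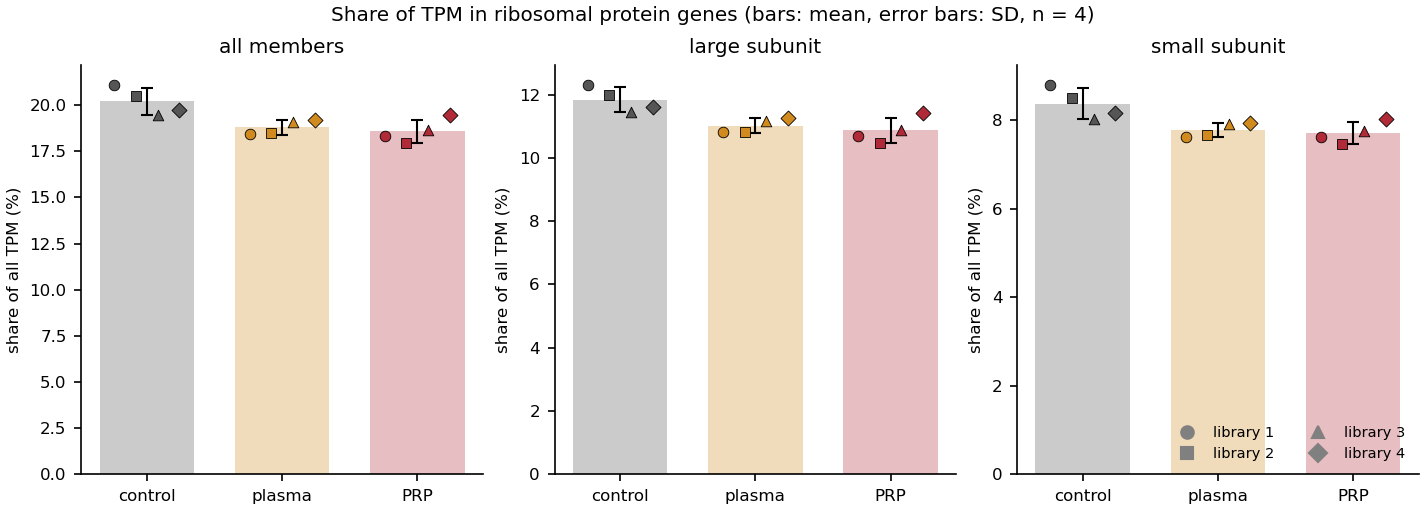
Share of each library's TPM (%) in all 85 ribosomal protein genes, the 53 of the large and the 32 of the small subunit; bars are means, error bars SD of 4 libraries, and symbols the numbered libraries. For all genes and the large subunit every treated library lies below every control library, while for the small subunit PRP 4 (8.03%) lies just above control 3 (8.02%); in control, libraries 1 and 2 are the highest.

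The subunits moved together in this measure. Large-subunit genes held 11.8 ± 0.385% of TPM (control), 11.0 ± 0.241% (plasma) and 10.9 ± 0.399% (PRP). Small-subunit genes held 8.37 ± 0.353%, 7.78 ± 0.165% and 7.71 ± 0.244%. The ratio of large to small was 1.42 ± 0.0136 in control, 1.42 ± 0.00485 with plasma and 1.41 ± 0.00825 with PRP, and the ranges of the groups overlapped. The L-type paralogs together made up 0.0937 ± 0.00263% of TPM (control), 0.0965 ± 0.00176% (plasma) and 0.0968 ± 0.0018% (PRP).

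Gene by gene, more members fell than rose with plasma. By limma on log2(TPM + 1), with p-values adjusted by the Benjamini-Hochberg method over the 12517 genes tested and a threshold of 0.05, 37 of 83 members fell and 3 rose. Over all tested genes 29% fell and 20.3% rose, so 44.6% of members fell against 29%. The TPM of the groups did not overlap for 37 lower and 3 higher members, against 25.7% and 18.2% of all tested genes. The median log2 difference was -0.094 over the members, 71 of which were negative, and -0.05 over all tested genes. By subunit, 21 of 51 large-subunit and 16 of 32 small-subunit members fell.

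With PRP 43 of 83 members fell and 4 rose, against 31.5% and 21.7% of all tested genes. The groups did not overlap for 36 lower and 3 higher members, where 27.8% and 19% of all genes did not. Members had a median log2 difference of -0.11, with 69 negative, and all tested genes -0.057. In the large subunit 24 of 51 fell and in the small subunit 19 of 32. With both treatments 36 members fell, which is 36 of the 37 for plasma and 36 of the 43 for PRP. RPL27 passed with plasma alone, and RPL10A, RPL19, RPL22, RPL41 and RPS23 were among those that passed with PRP alone, although none of the members named here differed between PRP and plasma in the direct comparison.

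**Figure D2:**
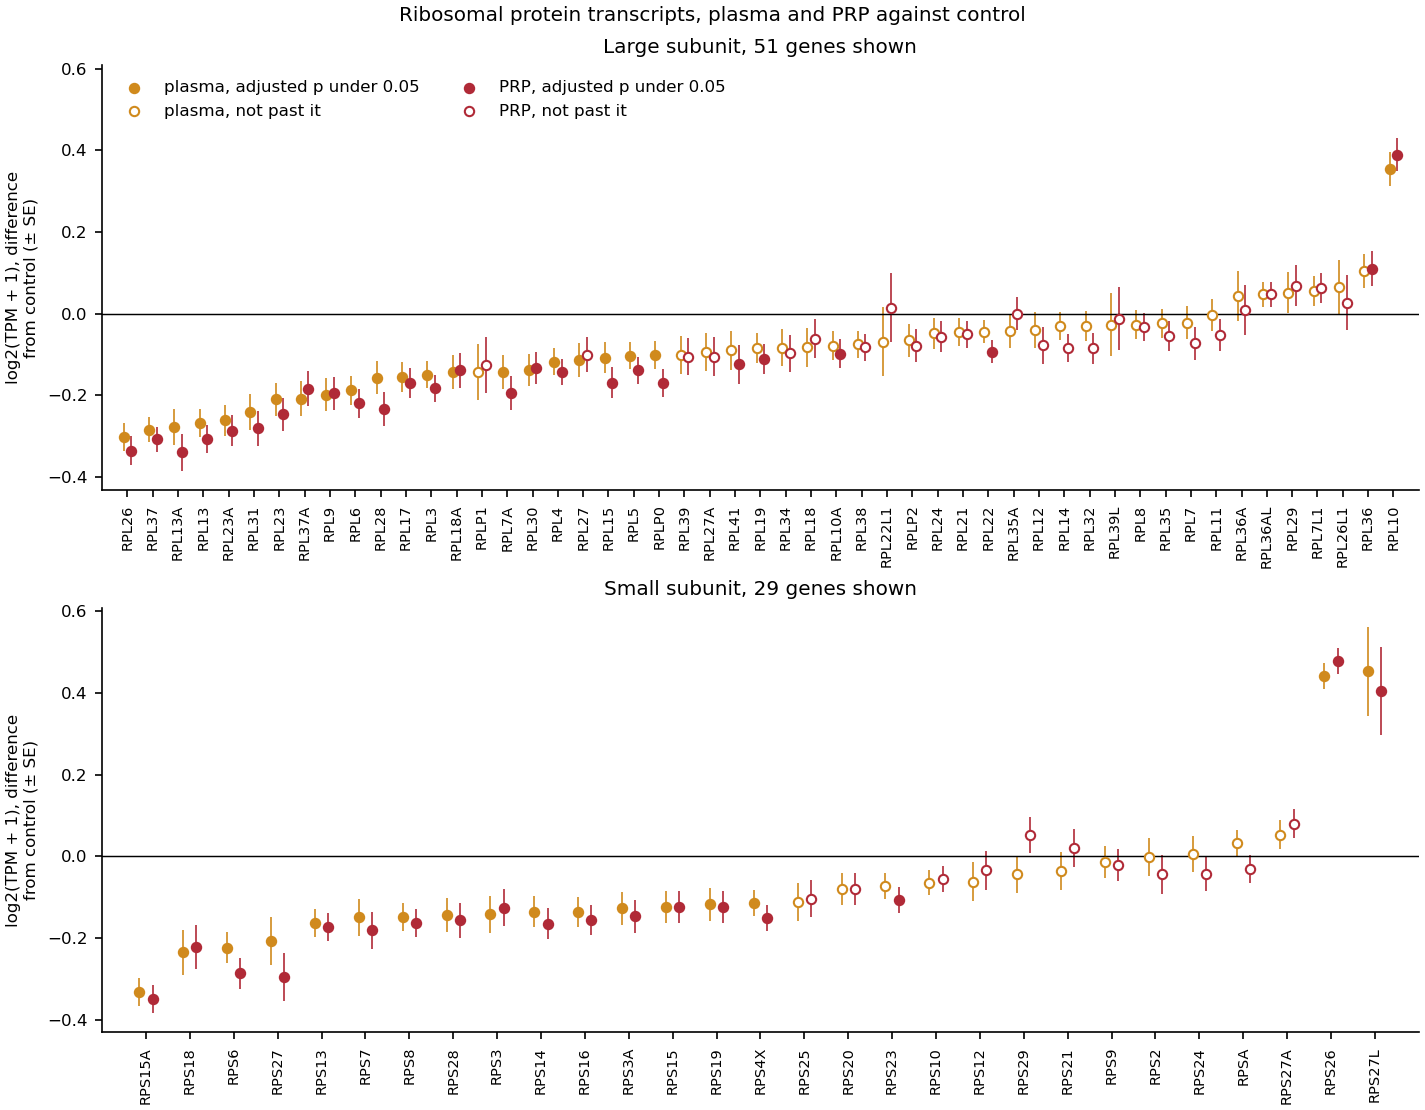
Difference from control in log2(TPM + 1) for 80 of the 83 tested members, by subunit and ordered by the plasma value; error bars are SE from limma, and filled points passed an adjusted p of 0.05. Most points lie a little below 0, RPS15A and RPL26 are the lowest of their subunits with plasma, and RPL10, RPS26 and RPS27L stand apart above 0.

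The size of this shift depended on which libraries were compared. With libraries 1 and 2 of each group only, the median member difference was -0.17 with plasma and -0.19 with PRP, and 56 and 61 members fell, where 20.5% and 25% of all tested genes fell; 2 and 3 members rose, against 16.2% and 19.3%. With libraries 3 and 4 only it was -0.031 and -0.039, less negative than the -0.054 and -0.06 of all genes, and 13 and 16 members fell, against 23.8% and 25.4% of genes, all of which also fell with libraries 1 and 2. There 5 and 6 members rose, against 17.6% and 18%. The share of TPM went from 20.8% to 18.5% (plasma) and 18.1% (PRP) in the first set, and from 19.6% to 19.1% and 19.0% in the second. Whether the sets differ was not tested. Each library was also placed against the control mean of every member: the medians were 0.061 and 0.02 in control 1 and 2, -0.045 and -0.032 in control 3 and 4, and between -0.17 and -0.056 in the treated libraries.

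**Figure D3:**
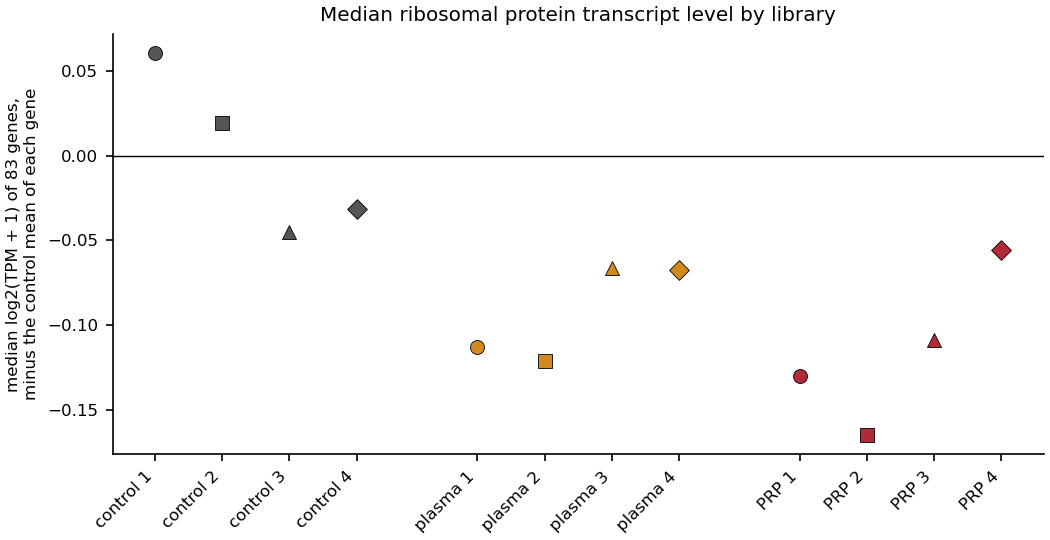
Median over 83 members of the log2(TPM + 1) value minus that member's mean in control, for each library; colours are groups and symbols the library numbers. Control 1 and 2 lie above 0 and control 3 and 4 below it, and PRP 4, at -0.056, lies nearest to the control libraries.

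Scaling changed the count as well. When each library was centred on the median of its tested genes, 13 members fell and 6 rose with plasma, against 22.4% and 26.4% of all tested genes, and 14 fell and 7 rose with PRP, against 24.1% and 28.2%. By that scaling the share of members that fell was below that of all genes. Of all calls across genes, 58.8% were lower with plasma as deposited and 45.9% after centring, and with PRP 59.2% and 46%. The 13 and 14 are all among the 37 and 43.

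A smaller set fell under every alternative run. With plasma these were 11 members, RPL13, RPL13A, RPL23A, RPL26, RPL31, RPL37, RPL37A, RPS6, RPS15A and RPS18 among them, called in all 28 alternatives, including centring, either set of libraries and voom on estimated reads. With PRP there were 12, among them RPL6, RPL13, RPL13A, RPL23, RPL23A, RPL26, RPL28, RPL31, RPL37, RPS6 and RPS15A. RPL10 and RPS26 rose in all 28 with both treatments, and RPS27L in all 28 with PRP. The share of all tested genes called in all 28 is not given here, so these counts cannot be set against it. The alternatives also reuse the same 12 libraries and are not independent of each other.

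RPS15A, a small-subunit protein that binds 18S rRNA, had the largest decrease with both treatments. Control libraries 1 to 4 held 2214, 2126, 2017 and 2029 TPM, the plasma libraries 1639, 1639, 1687 and 1689 TPM and the PRP libraries 1625, 1595, 1675 and 1682 TPM. All 8 treated libraries lay below all 4 control libraries, and the treated libraries were spread less than the controls. The mean changed by -20.6% with plasma and -21.6% with PRP. On the log2 scale limma gave -0.33 ± 0.0343 (SE, adjusted p = 3.59e-06) and -0.35 ± 0.0343 (adjusted p = 1.74e-06). In libraries 3 and 4 alone the differences were -0.26 and -0.27.

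RPL26, which sits at the exit of the tunnel, followed. It had 2744, 2697, 2573 and 2734 TPM in control, 2123, 2112, 2249 and 2236 TPM in plasma and 2094, 2101, 2086 and 2235 TPM in PRP libraries. No treated library reached the lowest control, control 3, and PRP 4 was higher than the other PRP libraries. The differences were -0.30 ± 0.0352 (plasma, adjusted p = 1.09e-05) and -0.34 ± 0.0352 (PRP, adjusted p = 3.23e-06), and in libraries 3 and 4 they were -0.24 and -0.30.

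RPL37, a small zinc-binding protein of the large subunit, had 1159.9, 1209, 1146 and 1163 TPM in control, 986, 944, 973 and 937 TPM in plasma and 929.7, 951, 922 and 975 TPM in PRP libraries. The groups were tight and apart, with the highest treated library, plasma 1, well below control 3. limma gave -0.28 ± 0.0304 (adjusted p = 4.91e-06) and -0.31 ± 0.0304 (adjusted p = 1.83e-06). Its effective length, as deposited, was itself lower with treatment, by -0.11 and -0.12 on the log2 scale, and the difference in estimated reads by voom was -0.36 and -0.39. With plasma its difference was -0.29 in libraries 1 and 2 and -0.27 in libraries 3 and 4.

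RPL13A, which also belongs to a complex that silences translation of inflammatory mRNAs, had 3866, 3643, 3415 and 3424 TPM in control, 2901, 2871, 3034 and 3022 TPM in plasma and 2796, 2723, 2788 and 3027 TPM in PRP libraries. Control 1 was the highest and control 3 the lowest of the controls, and all treated libraries were below it. The differences were -0.28 ± 0.0448 (adjusted p = 0.000181) and -0.34 ± 0.0448 (adjusted p = 2.65e-05). They were larger in libraries 1 and 2, at -0.38 and -0.44, than in libraries 3 and 4, at -0.18 and -0.24.

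**Figure D4:**
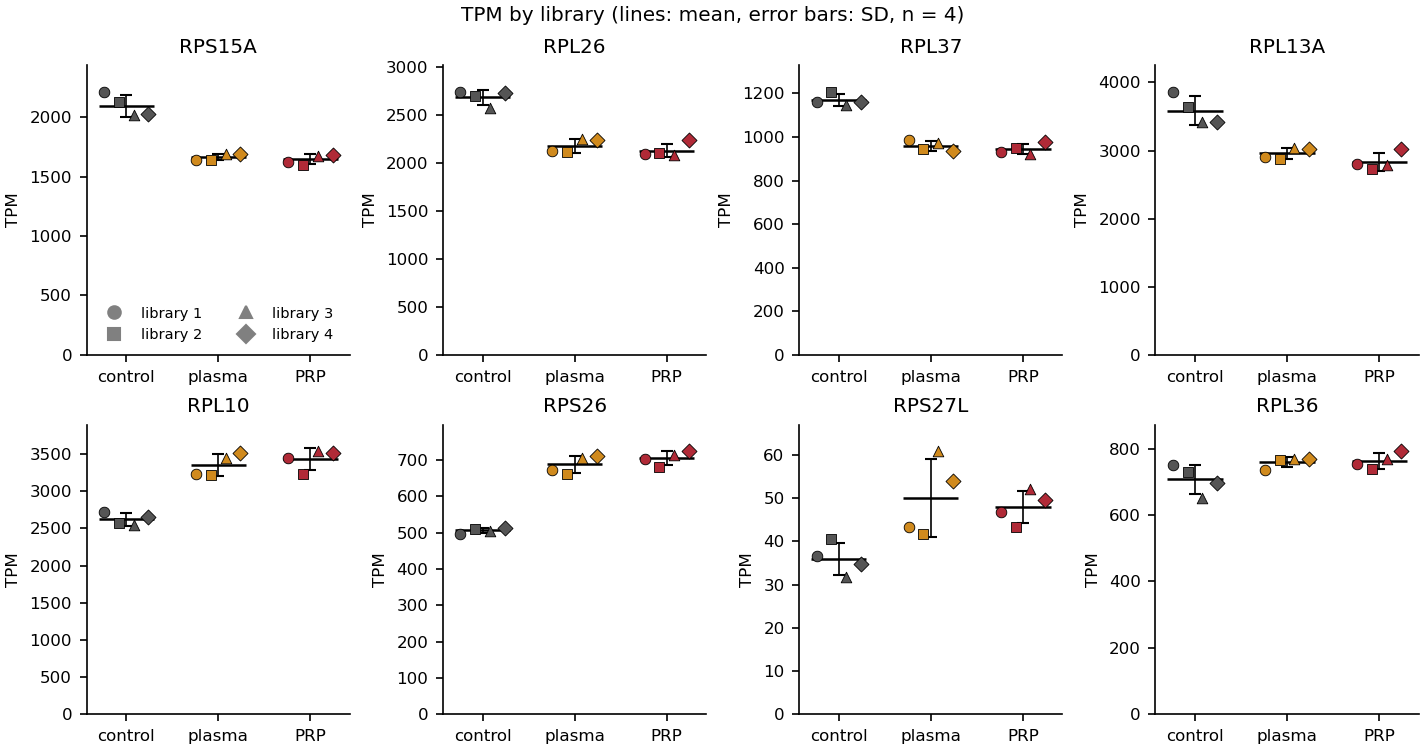
TPM by library for 4 members that fell and 4 that rose with at least one treatment; lines are means, error bars SD of 4 libraries, and symbols the library numbers, with each axis starting at 0. For RPL36 the control and treated libraries overlap, and for the other 7 they do not.

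The next in size were RPL13, RPL23A, RPL31 and RPS18. RPL13, a core protein of the large subunit, had 3086 to 3352 TPM in control, 2576 to 2711 in the plasma group and 2507 to 2698 in the PRP group, with log2 differences of -0.27 and -0.31. RPL23A, where the signal recognition particle docks, had 1660.5 to 1808, 1384 to 1512 and 1385 to 1481 TPM and differences of -0.26 and -0.29. RPL31, at the tunnel exit, had 1614 to 1828, 1400.1 to 1528 and 1393 to 1472 TPM and differences of -0.24 and -0.28. None of these 3 had a treated library within the control range. RPS18, in the head of the small subunit, had 4832 to 5553, 4139.6 to 4572 and 4031 to 4689 TPM and differences of -0.24 and -0.22. With PRP its adjusted p was 0.00341, and 0.0736 after centring. The RPS18 differences were -0.35 and -0.36 with libraries 1 and 2 alone. With libraries 3 and 4 alone they were -0.12 (adjusted p = 0.0397) and -0.083 (adjusted p = 0.128), so PRP gave no call there. RPS6, the substrate of S6 kinase, fell by 0.22 with plasma and by 0.29 with PRP on the log2 scale.

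Most genes for proteins that line or ring the tunnel exit fell with PRP, and about as many fell as did not with plasma. Of 9 such genes (RPL4, RPL17, RPL19, RPL22, RPL23A, RPL26, RPL31, RPL35 and RPL39), 5 fell with plasma and 7 with PRP and none rose, where 29% and 31.5% of all tested genes fell. Their median log2 difference was -0.12 with plasma and -0.14 with PRP, where all tested genes had -0.05 and -0.057. Among all 83 tested members, which include these 9, 37 fell with plasma and 43 with PRP, at medians of -0.094 and -0.11. RPL35 did not pass, at -0.024 and -0.055, so the group was not uniform. After centring 3 fell with each treatment and none rose, against 22.4% and 24.1% of all genes lower, and the same counts came from libraries 3 and 4 alone, against 23.8% and 25.4%. After centring, RPL35 was at 0.032 and RPL22 at 0.012 with plasma, on the other side of 0.

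In the stalk, which recruits elongation factors, 1 of 4 genes fell with each treatment, near the 29% and 31.5% of all tested genes that fell. The stalk gene that fell was RPLP0, at -0.10 ± 0.0346 (plasma, adjusted p = 0.0254) and -0.17 ± 0.0346 (PRP, adjusted p = 0.000944). RPLP1 was at -0.14 and -0.13, RPLP2 at -0.065 and -0.078, and RPL12 at -0.040 and -0.078, none past the threshold. Of the proteins that bind 5S rRNA and MDM2, RPL5 fell, at -0.10 and -0.14. RPL11, with 1649.7 to 1768 TPM in control, 1683 to 1779.5 TPM in plasma and 1597 to 1789 TPM in PRP libraries, did not pass, at -0.0035 and -0.052, with intervals of -0.086 to 0.079 and -0.13 to 0.031. RPLP0 and RPL5 no longer passed after centring (adjusted p = 0.509 and 0.467 with plasma, 0.113 and 0.223 with PRP).

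Along the mRNA channel of the small subunit, 3 of 6 genes fell and 1 rose with each treatment, beside the 29% and 31.5% of all tested genes that fell. RPS3, RPS3A and RPS28 fell, by 0.14, 0.13 and 0.14 on the log2 scale with plasma and by 0.13, 0.15 and 0.16 with PRP. RPS2 was at -0.0017 and -0.044 and RPSA, also known as the laminin receptor, at 0.031 and -0.031, neither past the threshold. After centring, only RPS28 of these 3 still passed, and with libraries 3 and 4 alone none of them did. Some genes mutated in Diamond-Blackfan anaemia, an inherited failure of red-cell production, are named here, and they are not the whole list. Of those named, RPS19, RPL5 and RPS7 fell with both treatments, RPS26 rose, and RPL11, RPS24, RPL35A and RPS10 did not pass. After centring, RPS19, RPL5 and RPS7 no longer passed (adjusted p = 0.294, 0.467 and 0.162 with plasma, 0.302, 0.223 and 0.0781 with PRP), while RPS26 still did.

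Against this, RPS26 rose with both treatments. RPS26 lies beside the mRNA exit channel and contacts the mRNA upstream of the start codon. It had 496, 511, 505 and 511 TPM in control, 673, 662, 705 and 711 TPM in plasma and 702, 680.3, 712 and 725 TPM in PRP libraries. The control libraries spanned a narrow range, and every treated library was far above them. The mean was 36.0% higher with plasma and 39.4% higher with PRP, with log2 differences of 0.44 ± 0.0318 (adjusted p = 1.37e-07) and 0.48 ± 0.0318 (adjusted p = 5.25e-08), the smallest adjusted p of all members. Both sets of libraries showed it: 0.41 and 0.48 with plasma, 0.46 and 0.50 with PRP. In estimated reads by voom the difference was 0.39 and 0.41, somewhat smaller, as its effective length was lower by 0.09 and 0.11 on the log2 scale. RPS26 is a gene of chromosome 12, at 56041918 to 56044697 in GRCh38.p14.

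RPL10, a late-joining protein needed before the subunits can pair, also rose. It had 2719, 2570.4, 2539 and 2652 TPM in control, 3233, 3215, 3441 and 3517 TPM in plasma and 3443, 3228, 3544 and 3515 TPM in PRP libraries. The highest control library, control 1, was below the lowest treated library, plasma 2. The mean was 27.9% higher with plasma and 31.0% higher with PRP. limma gave 0.35 ± 0.0405 (adjusted p = 9.02e-06) and 0.39 ± 0.0405 (adjusted p = 3.02e-06), and the estimated reads differed by 0.41 and 0.45. Its gene is on the X chromosome, at 154398065 to 154402339.

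RPS27L, a paralog of RPS27, rose from a low level. It had 36.7, 40.7, 31.7 and 34.9 TPM in control, 43.3, 41.8, 61.0 and 54.1 TPM in plasma and 46.8, 43.3, 52.1 and 49.6 TPM in PRP libraries. Every treated library was above every control library, but plasma 3 and 4 were well above plasma 1 and 2, which were only just above control 2. The log2 differences were 0.45 ± 0.108 (adjusted p = 0.0034) and 0.41 ± 0.108 (adjusted p = 0.00608). With libraries 1 and 2 alone plasma gave 0.14 (adjusted p = 0.159) and no call, and with 3 and 4 alone 0.77. With PRP these were 0.21 and 0.60.

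RPL36, a large-subunit protein, passed with PRP only and by a small margin. Its TPM was 650.3 to 751 (control), 736 to 768 (plasma) and 737 to 793 (PRP), and the ranges overlapped. The differences were 0.10 ± 0.0417 (adjusted p = 0.0511) and 0.11 ± 0.0417 (adjusted p = 0.0376), and the PRP call was made in 17 of the 28 alternatives. With libraries 1 and 2 alone RPL36 passed with neither treatment, at 0.019 and 0.0084. With libraries 3 and 4 alone it rose with both, at 0.19 (adjusted p = 0.00913) and 0.21 (adjusted p = 0.00527).

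Of the 6 L-type paralogs tested, RPS27L rose with each treatment and the other 5 did not pass. Over all tested genes 20.3% rose with plasma and 21.7% with PRP. After centring, RPL7L1 also passed as higher with both treatments and RPL36AL with PRP, where 26.4% and 28.2% of all genes rose. With each paralog set against its parent, 2 pairs had ratios apart from control. RPS27L amounted to 0.792, 0.774, 0.741 and 0.720% of RPS27 in the control libraries, 1.08, 1.04, 1.41 and 1.32% with plasma and 1.25, 1.12, 1.42 and 1.17% with PRP, as RPS27, a zinc-finger protein of the small subunit, itself fell, by 0.21 and 0.30 on the log2 scale. With libraries 3 and 4 alone RPS27 did not pass (adjusted p = 0.287 with plasma and 0.0594 with PRP). After centring it passed with PRP only. RPL26L1 amounted to 2.22, 2.05, 2.50 and 2.15% of RPL26 in control, 2.75, 3.20, 2.96 and 2.59% with plasma and 2.77, 2.96, 3.20 and 2.54% with PRP. For RPL26L1 the lowest treated library, PRP 4, was just above the highest control, control 3. Its own level was 59.8 ± 3.82 TPM in control, 62.6 ± 5.23 TPM in plasma and 60.9 ± 4.51 TPM in PRP libraries, with overlapping ranges, and the parent RPL26 was the member of the pair that passed the test.

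For the other pairs the ratios overlapped between groups. RPL36AL was at 50.0 ± 3.88%, 50.1 ± 2.80% and 51.4 ± 3.87% of RPL36A in control, plasma and PRP, by far the largest ratio. RPL39L, a paralog best known from testis, was at 9.11 ± 0.131%, 9.63 ± 1.09% and 9.81 ± 1.55% of RPL39. RPL22L1 was at 8.29 ± 1.17%, 8.09 ± 0.579% and 8.89 ± 0.810% of RPL22, and RPL7L1, a nucleolar protein of assembly, at 3.51 ± 0.148%, 3.71 ± 0.221% and 3.86 ± 0.278% of RPL7. RPL3L, a muscle paralog, was at 0.467 ± 0.0886, 0.649 ± 0.126 and 0.453 ± 0.206 TPM, and RPL10L, a testis paralog, at 0.187 ± 0.180, 0.194 ± 0.265 and 0.197 ± 0.180 TPM. Among the parents, RPL3 fell with both treatments, at -0.15 and -0.18. It passed with neither after centring, and with libraries 3 and 4 alone it passed with PRP but not with plasma (adjusted p = 0.0375 and 0.11). RPL7 was at -0.022 and -0.072, RPL39 at -0.10 and -0.11, and RPL36A at 0.043 and 0.0087, none past the threshold.

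The highest members showed small differences. RPS2 had 6878 to 8029 TPM in control, 7109.9 to 7728 TPM in plasma and 6813 to 7423 TPM in PRP libraries, all overlapping. RPL41 had 6317 to 6743, 5877 to 6456 and 5709 to 6565 TPM, and passed with PRP alone, at -0.12 (adjusted p = 0.0402), with PRP 4 inside the control range. RPL4 fell with both, at -0.12 and -0.14, with 5109 to 5371 TPM in control, 4711 to 4946 TPM in plasma and 4607 to 4926 TPM in PRP libraries. RPL4 no longer passed after centring (adjusted p = 0.346 and 0.217) or with libraries 3 and 4 alone (adjusted p = 0.219 and 0.0897).

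PRP and plasma did not differ for any member by this test. limma called 0 of 83 members, where 8 genes (0.0639%) were called among all tested. At an unadjusted p under 0.05 there was 1 member of 83, RPS29, against 7.98% of all tested genes, and voom on estimated reads also called 0. RPS29, a zinc-binding protein in the small subunit's head, had 2254 to 2378 TPM with plasma and 2406 to 2556 with PRP, without overlap, but control spanned 2246 to 2621 and the difference was 0.10 ± 0.0445 (adjusted p = 0.619). It was the only member whose plasma and PRP libraries did not overlap, where 2.63% of all genes were higher and 2.59% lower without overlap. Members differed by -0.09 to 0.096, with a median of -0.017 against -0.0039 for all genes, and 60 were negative. No interval reached beyond 0.28 from 0; for RPS26 it was -0.032 to 0.10, for RPL10 -0.053 to 0.12 and for RPS15A -0.091 to 0.056. A difference that misses the threshold does not show that plasma and PRP act alike.

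Of the ribosomal genes outside the naming rule, RACK1 and FAU are described. RACK1, a scaffold on the small subunit, fell, with 2797 to 3125 TPM in control, 2667 to 2783 TPM in plasma and 2591 to 2736 TPM in PRP libraries and log2 differences of -0.11 (adjusted p = 0.0287) and -0.15 (adjusted p = 0.00426). After centring RACK1 no longer passed (adjusted p = 0.399 and 0.155). FAU had 3866 to 4140.3, 3905 to 4039 and 3928 to 4048 TPM and differences of -0.008 and 0.0012, not past the threshold. RPS27A, a member that is made as a fusion to ubiquitin, was at 0.053 and 0.080, not past the threshold. After centring it passed as higher with both treatments, where 26.4% and 28.2% of all genes rose. It also did so with libraries 3 and 4 alone, where 17.6% and 18% of all genes rose.

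Other transcripts known to start with a TOP motif were counted beside the ribosomal protein genes. Of a list of 19 translation factors and related genes, 9 fell and 3 rose with plasma, and 12 fell and 1 rose with PRP, at median differences of -0.084 and -0.14. Decreases outnumbered increases over all tested genes too, at 29% lower and 20.3% higher with plasma and 31.5% and 21.7% with PRP. After centring 5 fell and 4 rose with plasma and 7 fell and 3 rose with PRP, where 22.4% and 26.4% of all genes fell and rose with plasma and 24.1% and 28.2% with PRP. Libraries 3 and 4 alone gave 5 and 4 with plasma and 7 and 2 with PRP. TPT1, the translationally controlled tumour protein, fell the most of them, with 5662 to 5856 TPM in control, 4260.4 to 4612 in the plasma group and 4114 to 4663 in the PRP group, at -0.37 ± 0.0417 (adjusted p = 7.44e-06) and -0.43 ± 0.0417 (adjusted p = 1.52e-06). EEF1A1, which brings aminoacyl-tRNA to the ribosome, had 15407 to 17336, 13949 to 14532 and 13272 to 14542 TPM, and fell by 0.17 and 0.22 on the log2 scale. After centring EEF1A1 no longer passed with plasma (adjusted p = 0.123). EEF2, which moves the ribosome along, fell by 0.25 and 0.32, EIF3L by 0.24 and 0.31, and NACA, a chaperone at the tunnel exit, by 0.20 and 0.22. VIM, an intermediate filament also listed as a TOP transcript, rose, by 0.47 and 0.56.

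**Figure D5:**
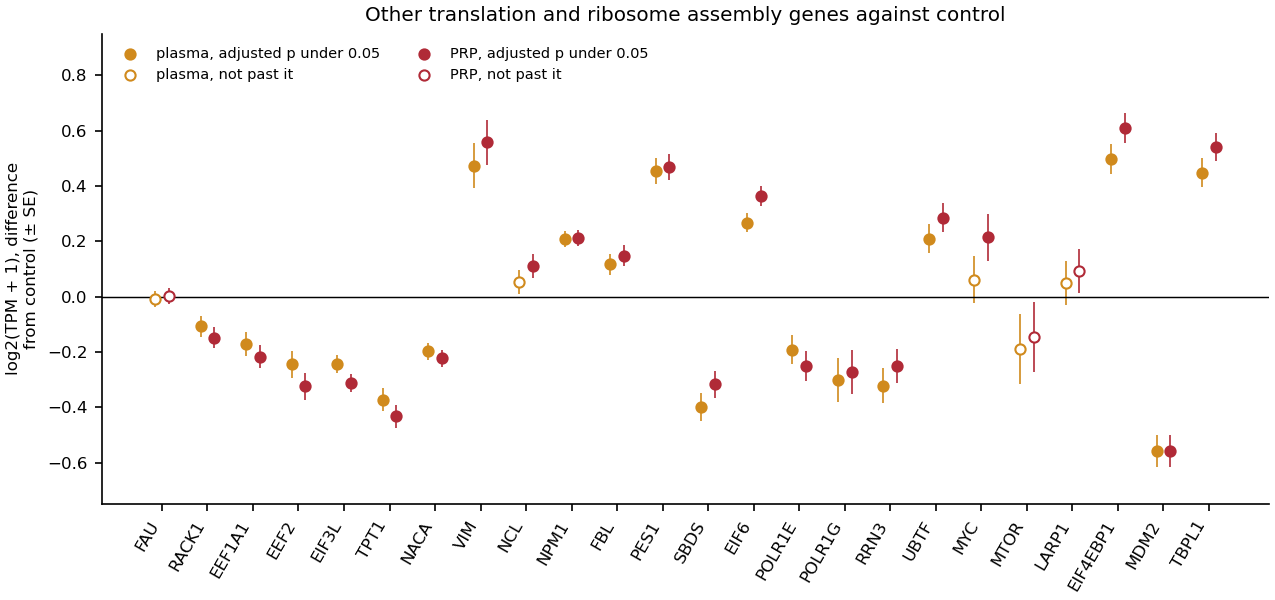
Difference from control in log2(TPM + 1) for the named genes of the related lists, in the order ribosomal genes outside the rule, other TOP transcripts, rRNA processing, RNA polymerase I and regulators; error bars are SE from limma, and filled points passed an adjusted p of 0.05. The named TOP transcripts other than VIM lie below 0, while the named rRNA processing genes other than SBDS lie above it. The genes shown are those of smallest adjusted p and a fixed set, and do not stand for their lists. Among genes not shown, EIF3K and HNRNPA1 of the TOP list rose with plasma, and RRP12 and DDX21 of the rRNA processing list fell with both treatments.

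Genes whose products build ribosomes rose and fell in shares near those of all tested genes with plasma. Of 46 rRNA processing and assembly genes, plasma libraries had 9 higher and 13 lower, and PRP libraries 13 higher and 9 lower, against 20.3% and 29% of all tested genes with plasma and 21.7% and 31.5% with PRP. The balance with plasma turned with scaling and with the libraries used: after centring 11 rose and 7 fell, libraries 1 and 2 alone gave 11 and 4, and libraries 3 and 4 alone gave 7 and 18. With PRP these were 16 and 6, 15 and 5, and 8 and 15. NPM1, the nucleolar chaperone, rose with 1135 to 1185 TPM in control, 1329.5 to 1387 in the plasma group and 1330.1 to 1389 in the PRP group, at 0.21 ± 0.0285 (adjusted p = 4.55e-05) and 0.21 ± 0.0285 (adjusted p = 3.16e-05). PES1, for maturation of the large-subunit rRNAs, rose by 0.45 and 0.47, and EIF6, which keeps free large subunits from joining, by 0.27 and 0.36. SBDS, which helps to release EIF6, fell by 0.40 and 0.32 on the log2 scale. FBL, the rRNA methyltransferase, rose by 0.12 and 0.15. By library number, FBL stood at 257, 253, 272 and 284 TPM in control and 283, 299, 284 and 289 TPM with plasma. Plasma 1 was just below control 4, so these ranges overlapped, while every PRP library was above control. NCL was at 0.053, not past the threshold, with plasma and rose by 0.11 with PRP (adjusted p = 0.0471). Its ranges overlapped between control and each treatment. NCL had 495 and 522 TPM in control 1 and 2, against 587 and 584 TPM in PRP 1 and 2. The difference was smaller in libraries 3 and 4, at 561 and 544 TPM against 576 and 543 TPM.

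Of 14 genes for RNA polymerase I and its factors, plasma libraries had 1 higher and 4 lower, and PRP libraries 2 higher and 4 lower, where the same 29% and 31.5% of all genes were lower. After centring these were 2 and 3, and 3 and 3, and POLR1E no longer passed with plasma (adjusted p = 0.0865). RRN3, which recruits the polymerase, fell, at -0.32 and -0.25, as did POLR1E (-0.19 and -0.25) and POLR1G (-0.30 and -0.27), whereas UBTF, the rDNA-binding factor, rose, at 0.21 and 0.29.

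Of 18 regulators of ribosome production and sensors of its failure, 17 were tested. With plasma 5 rose and 3 fell, and with PRP 6 rose and 3 fell. Over all tested genes 20.3% rose and 29% fell with plasma and 21.7% and 31.5% with PRP. After centring the regulators had 6 higher and 2 lower, and 10 and 1, against 26.4% and 28.2% of all genes higher, and scaled to the genes that are not ribosomal they were 4 and 3, and 3 and 3. MYC had 31.7 to 42.5 TPM in control, 38.4 to 42.3 TPM in plasma and 39.4 to 49.1 TPM in PRP libraries, and passed with PRP only, at 0.21 (adjusted p = 0.0468). MTOR and LARP1 did not pass, at -0.19 and 0.050 with plasma and -0.15 and 0.093 with PRP. EIF4EBP1, the translation repressor that mTORC1 inactivates, rose from 59.9 to 66.4 TPM in control to 83.3 to 98.6 TPM (plasma) and 92.9 to 105 TPM (PRP). MDM2, a ubiquitin ligase, fell, at -0.56 and -0.56, and TBPL1, a TBP-like factor, rose, at 0.45 and 0.54. These lists were chosen by what their genes do and describe what was measured beside the ribosomal proteins; their part in those results was not tested.

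Several features of the files bear on single members. The median effective length of the members was 407 bases, against 2293 for all tested genes, so that TPM gives their short mRNAs more weight than reads do. For 8 members it differed from control by over 0.05 on the log2 scale with each treatment. The tables also list fusion transcripts and a copy beside their genes: the RPL36A-HNRNPH2 row had 308 ± 18.7 (control), 307 ± 7.15 (plasma) and 325 ± 22.9 TPM (PRP) beside RPL36A, and RPSA2 had 43.7 ± 2.8, 45.3 ± 3.69 and 49.5 ± 3.49 TPM beside RPSA. Adding these rows and those of RPL17-C18orf32 and RPS10-NUDT3 to their genes changed no count of calls. Ribosomal protein genes have many processed pseudogenes of near-identical sequence, and how reads were divided between them is not shown in the files.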

How the data were processed

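Gene-level tables of 12 libraries were used. Per the file headers, the authors deposited a length, an effective length, TPM and estimated reads per gene, and per the submitters' processing notes these came from Salmon with hg38; the version, annotation and settings are not given in the sources used here. Values carry a decimal comma, and TPM and estimated reads were registered as other numbers, so no count model was used as the main test. Estimated reads were tested with voom as an alternative. TPM recomputed from reads and effective length matched the deposited TPM for every gene, within 1% or 0.01 TPM.

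Groups come from the labels, with 4 libraries each. The main test was limma (version 3.58.1, R 4.3.3) with an intensity trend on log2(TPM + 1), for genes that reached 1 TPM in 4 or more libraries, fitted on all 12 libraries (9 residual degrees of freedom), two-sided, with Benjamini-Hochberg adjustment over all tested genes and a threshold of 0.05. A fold change on this scale understates the change of low genes. Intervals are 95% intervals of that fit. The scripts were tested on simulated data.

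Alternatives were other pseudocounts and filters, median centring, scaling to genes that are not ribosomal, a common effective length, voom on estimated reads, a replicate term, only the 8 libraries compared, and left-out libraries. Of these, 4 were added after seeing the data: adding the read-through rows, the replicate term with centring, and leaving out libraries 1 and 2 or 3 and 4. The members and lists were chosen with earlier results of these data known. Named with values were the 8 called members of largest decrease and up to 8 of largest increase with plasma (4 existed), the 4 highest, every L-type paralog with its parent, and of each related list up to 4 genes of smallest adjusted p plus FAU, RACK1, MYC, MTOR, LARP1, NCL, NPM1, FBL, EEF1A1 and EEF2. Others were named after their values were seen, and some genes are not reported by name here. All 85 members matched the RefSeq gene table of GRCh38.p14, and 68 its promoter table, from which the sequences come.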

Additional observations from a re-analysis of the deposited data

Results flagged for a closer look

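In 4 of the 99 groups of 4 values examined, 1 library lay far from the other 3, by a measure that flags about 1 in 20 groups by chance, or 4.95 of 99. RPL26 had 2235 TPM in PRP library 4, against 2086 to 2101 in the other PRP libraries. RPL13 had 2576 TPM in plasma library 4, against 2691 to 2711 in the other plasma libraries. RPL36 had 736 TPM in plasma library 1, against 765 to 768 in the others. The summed TPM of the L-type paralogs was 977 in control library 1, against 923 to 925 in the other control libraries.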

How the results depend on the processing

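Against 37 members lower and 3 higher with plasma, median centring gave 13 and 6, voom with median-of-ratios scaling 20 and 9, and the replicate block with median centring 15 and 8. Without the libraries numbered 1, 22 were lower; without those numbered 1 and 2, 13 lower and 5 higher; without those numbered 3 and 4, 56 lower. A common effective length gave 5 higher and voom scaled to total reads 6. Leaving out 1 library in turn gave 29 to 41 lower and 3 to 4 higher. Against 43 lower and 4 higher with PRP, centring gave 14 and 7, voom with median-of-ratios scaling 26 and 8, the block with centring 23 and 8, and leaving out libraries 1 and 2 gave 16 lower. Leaving out 1 library gave 37 to 52 lower and 3 to 6 higher. No alternative called a member between PRP and plasma. The cause was not tested.

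In place of TPM, shares of estimated reads for control, plasma and PRP were 5.58%, 5.31% and 5.21% (all members), 3.54%, 3.36% and 3.29% (large subunit), 2.04%, 1.95% and 1.92% (small subunit) and 0.0424%, 0.0453% and 0.0463% (L-type paralogs), since members are short.

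The labels do not say whether libraries of the same number belong together. Such libraries correlated at -0.067 to 0.30 in their deviations from group means, over 0.1 in 5 of 12 pairs. Own number was best in 7 of 12. Over all tested genes the replicate block gave 6600 calls with plasma and 7105 with PRP, against 6173 and 6652 without it. What libraries of the same number share was not tested. With the replicate block, 37 members were lower and 3 higher with plasma, 43 and 3 with PRP, and 0 differed between PRP and plasma.

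Some log2 differences near 0 that did not pass the test changed sign; each is given with the alternatives that did so. RPS2 with plasma, at -0.0017, gave 0.055 (centring), 0.0056 (common effective length), 0.034 (voom by total), 0.063 (voom by median-of-ratios), 0.056 (without libraries 1), 0.10 (without 1 and 2), 0.055 (block with centring), -0.034 to 0.040 (1 library left out). RPL22L1 with plasma, at -0.068, gave 0.0057 (voom by median-of-ratios), 0.0074 (without libraries 1). RPL39L with plasma, at -0.027, gave 0.029 (centring), 0.0087 (voom by total), 0.037 (voom by median-of-ratios), 0.029 (block with centring), -0.081 to 0.020 (1 library left out). RPL7 with plasma, at -0.022, gave 0.034 (centring), 0.021 (voom by total), 0.050 (voom by median-of-ratios), 0.030 (without 1 and 2), 0.034 (block with centring). RPL22 with plasma, at -0.044, gave 0.012 (centring), 0.012 (block with centring). RPS2 with PRP, at -0.044, gave 0.020 (centring), 0.022 (voom by median-of-ratios), 0.061 (without 1 and 2), 0.020 (block with centring). RPL22L1 with PRP, at 0.015, gave -0.014 (scaling to other genes), -0.093 (without 3 and 4), -0.054 to 0.079 (1 library left out). RPL26L1 with PRP, at 0.027, gave -0.0018 (scaling to other genes), -0.017 to 0.062 (1 library left out). RPL39L with PRP, at -0.012, gave 0.052 (centring), 0.015 (voom by total), 0.050 (voom by median-of-ratios), 0.027 (without 3 and 4), 0.052 (block with centring), -0.076 to 0.046 (1 library left out). RPL36A with PRP, at 0.0087, gave -0.021 (scaling to other genes), -0.044 (without 3 and 4), -0.042 to 0.051 (1 library left out). RPL39 with PRP, at -0.11, gave 0.028 (without 1 and 2). RPS27L between PRP and plasma, at -0.048, gave 0.000896 (voom by median-of-ratios), 0.079 (without 3 and 4), -0.13 to 0.051 (1 library left out).

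The depth leaves each tested member at a mean control level of 36.0 TPM or more, so spread between libraries limits these values. RPL3L and RPL10L, under 1 TPM, are given as values only.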
